A study of Mus musculus with 50 samples.

Results

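DNA methylation was examined in genes that build the contractile apparatus and the cytoskeleton of the muscle fibre. A list of 56 genes was taken by name, and a CpG belonged to the group when the deposited table placed it in the promoter or the body of one of them. All 56 names were found in the annotation, and 43 of the genes had measured CpGs. They held 420 of 205304 CpGs, 108 of them in promoters and 361 in gene bodies, and these fell into 128 of 51038 clusters, a cluster being a run of neighbouring CpGs as the table defines it (per the methods of the study joined at gaps of up to 100 bp, although wider gaps occur between listed CpGs). The other 13 genes had no CpG assigned to them, for reasons that were not examined. These were Myh1, Myh7, Myl3, Tnnt3, Tnni2, Tnnc2, Myom3, Myoz1, Myoz3, Tcap, Lmod2, Sgca and Trim55. The slow myosin heavy chain of the soleus and the fast troponins were therefore not measured.

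The measurements came from soleus, a postural muscle of the lower leg, of 12-week-old male and female C57BL/6 mice. All animals were homozygous for a floxed Dnmt3a gene. The mD3AKO animals also carried a Cre transgene under the muscle creatine kinase promoter (mCK-Cre), and the WT animals carried no Cre, so that effects of Cre and of the deletion cannot be told apart. The promoter acts late in fibre formation, so satellite cells and non-muscle cells presumably keep Dnmt3a, which was not tested here. Animals rested on a sham treadmill or were killed 10, 30 or 60 min after 30 min of running, and the groups held 5, 5, 5 and 6 WT and 5, 5, 7 and 6 mD3AKO samples in the order of time. Each sample is the muscle of an animal, in which nuclei of many cell types are mixed, so a different share of cell types and a different level per nucleus cannot be told apart. The table holds no RNA, and neither the tissue nor the deletion could be checked against marker genes here. Over the 529 clusters that were lower in mD3AKO at an adjusted p under 0.05, the mean level ran from 31.9 to 38.3% in the 21 WT samples and from 18.0 to 25.3% in the 23 mD3AKO samples. The genotypes did not overlap there, but those clusters were chosen on the same contrast.

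DNMT3A places methyl groups on CpGs that carry none, and the maintenance enzyme DNMT1 copies existing methylation when cells divide. Fibre nuclei no longer divide. CpG-rich gene starts are usually free of methylation, and the bodies of genes are usually methylated at most of their CpGs. In the sarcomere, thick filaments of myosin slide along thin filaments of actin that are gated by tropomyosin and the troponins. Titin spans from the Z-disc to the M-band, nebulin lines the thin filament, and Z-disc, costamere and membrane proteins tie the lattice to the cell surface. Slow and fast fibres use different genes for many of these proteins, and the mouse soleus holds slow fibres together with fast oxidative ones.

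The clusters on which the results below turn are shown first, read from the GRCm38 genome (the same assembly as mm10) on the strand of the gene, from 5′ to 3′. Capitals mark the CpGs that were measured. The first 5 are the clusters with the lowest genotype p-values, and the last 2 are the clusters, each of a single CpG, with the largest mean difference in level in each direction, lower in mD3AKO for Myh4 and higher for Ttn.
Synpo2l, coding exon (chr14:20661430-20661637, minus strand, 8 of the 10 CpGs of the cluster): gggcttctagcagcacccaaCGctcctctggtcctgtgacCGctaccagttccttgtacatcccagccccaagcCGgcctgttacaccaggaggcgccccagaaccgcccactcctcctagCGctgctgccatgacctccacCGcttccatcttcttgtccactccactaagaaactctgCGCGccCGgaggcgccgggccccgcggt
Myh14, intron (chr7:44614169-44614281, minus strand): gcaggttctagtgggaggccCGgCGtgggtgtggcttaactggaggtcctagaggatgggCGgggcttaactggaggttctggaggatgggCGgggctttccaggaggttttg
Mybpc2, upstream of the gene (chr7:44525531-44525704, minus strand): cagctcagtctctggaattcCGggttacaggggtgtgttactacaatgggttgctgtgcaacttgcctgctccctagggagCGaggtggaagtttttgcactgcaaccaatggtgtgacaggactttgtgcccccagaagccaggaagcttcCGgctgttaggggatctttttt
Myh14, coding exon (chr7:44638923-44638964, minus strand): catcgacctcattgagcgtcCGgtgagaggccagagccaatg
Dysf, intron (chr6:84012388-84012484, plus strand): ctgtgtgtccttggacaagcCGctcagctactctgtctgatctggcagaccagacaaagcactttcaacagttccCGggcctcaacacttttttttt
Myh4, intron (chr11:67239377-67239418, plus strand): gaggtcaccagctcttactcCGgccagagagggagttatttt
Ttn, coding exon (chr2:76794148-76794189, minus strand): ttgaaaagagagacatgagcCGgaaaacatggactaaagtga

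Of the structural genes, 2 had lower gene body methylation in mD3AKO soleus: Myh14, a myosin heavy chain, and Synpo2l, a Z-disc protein also called CHAP. These were 2 of 37 gene bodies tested, beside 1.35% of all 12391 gene bodies (edgeR quasi-likelihood test, Benjamini-Hochberg adjustment over all gene bodies). No single cluster and no promoter of the group passed the same test. It called 0 of 128 member clusters, against 1.04% of all clusters, and 0 of 22 member promoters, against 0.789% of all promoters. At an unadjusted p under 0.05 there were 20 member clusters (15.6%, beside 9.53% of all clusters), of which 18 were lower in mD3AKO. At the same p there were 2 member promoters (9.09%, beside 8.23% of all promoters), Mybpc2 with a lower and Myh14 with a higher fitted level. Other tests on the same clusters called a few: the likelihood ratio test called 4 (2.77% of all clusters), a quasi-binomial model 3 (2.54%) and limma on log2 ratios 2 (1.75%). All of these were in Myh14, Synpo2l and Mybpc2. For promoters the likelihood ratio test (1.93% of all promoters) and the quasi-binomial model (1.7%) called Mybpc2, and limma (1.36%) called 0.

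The median difference between genotypes was -0.71 percentage points over the 128 member clusters and -0.46 over all clusters, and the mean was lower in mD3AKO at 62.5% of member clusters and at 62.4% of all. Per sample, the mean level over the 128 clusters was 44.2% ± 2.56 (SD, n = 21) in WT and 42.2% ± 2.36 (n = 23) in mD3AKO, with ranges of 38.3 to 47.5% and 37.1 to 46.2% that overlapped. When clusters were set beside all clusters of the same methylation level, in steps of 10 points, 9 member clusters lay below the 5th percentile of the difference and 7 above the 95th. That is 7.03% and 5.47% of the members. The clusters with a mean level of 0 to 10% held 9 of the 20 members at an unadjusted p under 0.05, which were 31.0% of 29 member clusters at that level, beside 10.2% of all clusters at that level. Their median difference was -0.60 points, beside -0.10 over all clusters at that level.

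**Figure D1:**
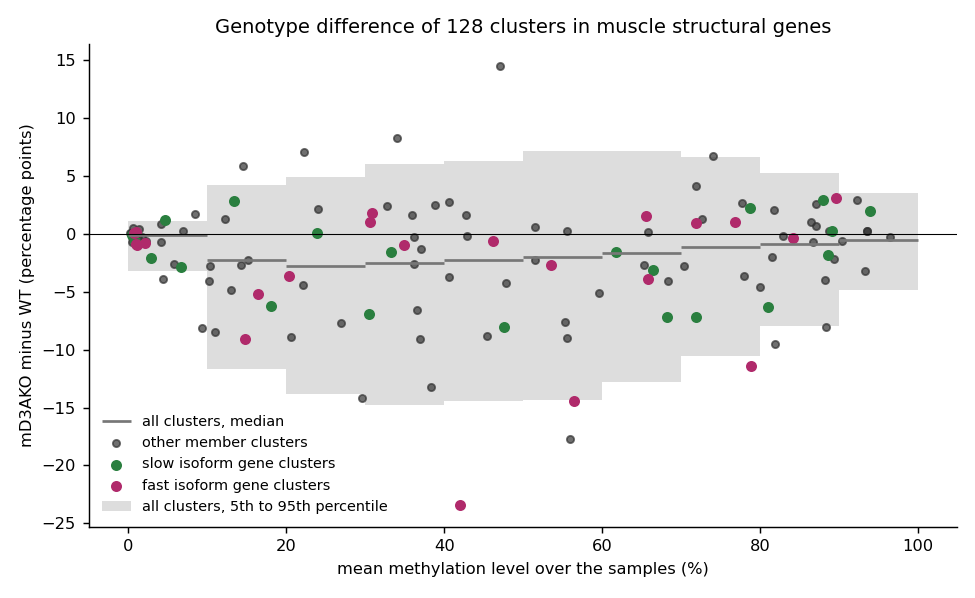
Difference between genotypes (mD3AKO minus WT, percentage points) of each of the 128 clusters against its mean level over all samples (%), with clusters of slow and fast isoform genes coloured. Grey bars give the 5th to 95th percentile and grey lines the median of all 51038 clusters in steps of 10 points; 9 member clusters lie below the bars and 7 above.

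Myh14 encodes a non-muscle type of myosin II heavy chain that is also made in skeletal muscle. Its body, on chromosome 7, held 5 measured CpGs with 120 to 619 calls per sample. The level ran from 2.38 through a median of 16.8 to 27.4% in WT and from 0.538 through 5.29 to 14.6% in mD3AKO. The groups overlapped, but 11 of 21 WT samples lay above every mD3AKO sample and all 23 mD3AKO samples lay below the WT median. The means were 15.7% ± 6.90 (SD, n = 21) and 6.44% ± 4.00 (n = 23), a log2 odds ratio (the log2 of the odds that a call is methylated in mD3AKO over those in WT) of -1.51 with an SE of 0.29 (edgeR quasi-likelihood test, adjusted p = 0.00189; permutation test of the means, two-sided, 100000 resamples, p = 2e-05). Both sexes showed the direction, from 12.9% ± 7.04 to 7.21% ± 4.21 in females and from 18.3% ± 5.91 to 5.74% ± 3.85 in males.

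The Myh14 mean was lower in mD3AKO at each time. From rest to 60 min the WT means were 14.5, 19.3, 17.8 and 12.0% and the mD3AKO means 6.62, 8.38, 4.72 and 6.68%. The sample numbers split by time, with numbers up to 25 holding rest and 60 min and numbers from 26 up holding 10 and 30 min, and the genotypes were also compared within each of these sets. The log2 odds ratio was -1.93 (SE 0.42) at 10 and 30 min (edgeR, adjusted p = 0.0193, with 0.395% of all gene bodies called) and -1.09 (SE 0.42) at rest and 60 min (adjusted p = 0.496), where the call was lost. It was also lost at a coverage minimum of 20 calls per CpG with the quasi-binomial model, where the log2 odds ratio was -0.97 (adjusted p = 0.170), while the same model without that minimum gave -1.45 (adjusted p = 0.000517).

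The body of Myh14 was made of an intronic cluster and a lone exonic CpG. In the intronic cluster (chr7:44614189-44614261, 4 CpGs, 78 to 511 calls) the level ran from 1.99 through 13.8 to 33.7% in WT and from 0 through 5.68 to 19.2% in mD3AKO. The means were 15.4% ± 8.69 and 6.87% ± 5.24 (log2 odds ratio -1.41, SE 0.42, adjusted p = 0.101 with edgeR's quasi-likelihood test). In the sequence above, the first 2 capital pairs lie 3 bases apart and differed in level. The first of them (position 44614261) was at 1.25% ± 3.52 in WT and 2.70% ± 7.11 in mD3AKO, and its neighbour at 15.6% ± 17.6 and 5.28% ± 7.25. The third pair was at 17.5% ± 18.0 in WT and 2.50% ± 4.14 in mD3AKO, and the last at 24.2% ± 13.2 and 13.4% ± 11.0. The exonic CpG (position 44638943, 9 to 163 calls) ran from 0 through 11.1 to 43.3% in WT and from 0 through 2.44 to 25.5% in mD3AKO, with means of 13.5% ± 14.5 and 5.43% ± 7.32 (log2 odds ratio -2.42, SE 0.74, edgeR adjusted p = 0.128; permutation p = 0.0228). At the start of Myh14, 2 promoter CpGs were near 0 in both genotypes, at 1.07% ± 4.45 and 1.53% ± 2.66.

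Synpo2l, a partner of alpha-actinin at the Z-disc, held 12 measured CpGs on chromosome 14 with 463 to 1945 calls. Its gene body level ran from 1.26 through 8.93 to 15.3% in WT and from 0.563 through 3.75 to 9.27% in mD3AKO. The groups overlapped, with 10 WT samples above every mD3AKO sample and 22 of 23 mD3AKO samples below the WT median. The means were 8.31% ± 3.53 and 4.23% ± 2.15 (log2 odds ratio -1.05, SE 0.28, adjusted p = 0.0421 with edgeR's quasi-likelihood test; permutation p = 5e-05). The call lies close to the threshold and was lost when any of 22 of the 44 samples was left out, within either set of sample numbers, and at a coverage minimum of 20 with the quasi-binomial model (adjusted p = 0.0535). The means were 8.86% ± 3.60 and 4.83% ± 2.27 in females and 7.82% ± 3.56 and 3.68% ± 1.98 in males.

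By time, the WT means of Synpo2l were 9.82, 6.12, 9.75 and 7.70% from rest to 60 min, and the mD3AKO means 4.68, 5.14, 3.26 and 4.22%. At 10 min the genotypes were close, with a log2 odds ratio of -0.10 (SE 0.58), while at rest and at 30 min it was -1.43 (SE 0.59) and -1.84 (SE 0.53). The interaction of genotype and time did not pass the test (edgeR, unadjusted p = 0.153).

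Most of the Synpo2l calls came from the coding exon whose sequence is given above (chr14:20661450-20661834, 10 CpGs, 408 to 1758 calls). There the level ran from 0 through 7.49 to 14.2% in WT and from 0 through 2.54 to 5.99% in mD3AKO. Every mD3AKO sample lay below the WT mean, although WT samples 42 and 22, at 0 and 1.02%, lay among the lowest of both genotypes. The means were 6.45% ± 3.19 and 2.53% ± 1.65 (log2 odds ratio -1.47, SE 0.42, adjusted p = 0.0844 with edgeR; permutation p = 1e-05, the smallest that 100000 resamples can give). The permutation p is unadjusted, and the cluster was picked for its low p-value in the same samples. The difference was uneven along the exon. The CpG at position 20661596, the second capital pair in the sequence, was at 16.3% ± 12.9 in WT and 1.13% ± 2.73 in mD3AKO, and the last CpG of the cluster (position 20661834) at 15.2% ± 8.92 and 8.98% ± 9.54. The other 8 were below 7% in both genotypes. The intronic cluster of the same gene (position 20665375, 2 CpGs) was at 24.5% ± 14.3 and 20.1% ± 11.6.

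**Figure D2:**
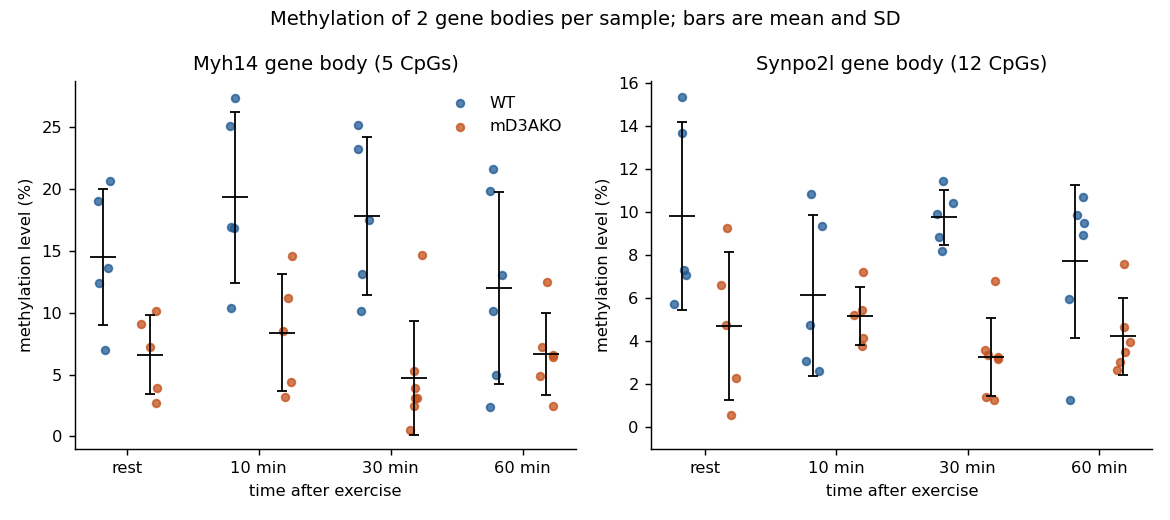
Methylation level (%) of the Myh14 body (5 CpGs) and the Synpo2l body (12 CpGs) in each sample, by time after exercise and genotype, with the mean and SD of each group in black. The Myh14 mean is 6.44% in mD3AKO against 15.7% in WT, and at 10 min the Synpo2l means are 5.14% and 6.12%.

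Mybpc2, the fast myosin-binding protein C of the thick filament, had the member promoter with the largest mean difference. Its 3 promoter CpGs formed a cluster at -962 bp from the start of the gene (chr7:44525551-44525684, 59 to 485 calls). The level ran from 3.39 through 18.2 to 37.3% in WT and from 1.27 through 10.6 to 17.3% in mD3AKO, so that every mD3AKO sample lay below the WT median and the ranges overlapped from 3.39 to 17.3%. The means were 19.5% ± 10.3 (SD, n = 21) and 10.5% ± 4.42 (n = 23). As a cluster the adjusted p was 0.115 (log2 odds ratio -1.06, SE 0.32) and as a promoter 0.201, both with edgeR's quasi-likelihood test. All 3 CpGs were lower in mean, the middle one (position 44525622) most, at 30.4% ± 17.1 in WT and 16.7% ± 8.07 in mD3AKO. Inside the gene, an intronic cluster of 5 CpGs was at 1.47% ± 1.47 and 0.577% ± 0.947, and an exonic CpG near the other end at 84.3% ± 10.2 and 84.0% ± 11.0.

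Dysf, the membrane repair protein dysferlin, was lower in mean at 7 of its 8 clusters without passing the test. Its gene body of 27 CpGs was at 32.5% ± 7.16 in WT and 25.9% ± 5.87 in mD3AKO (log2 odds ratio -0.46, SE 0.16, adjusted p = 0.194 with edgeR). The intronic cluster shown above (chr6:84012409-84012464, 2 CpGs) ran from 30.6 through 51.5 to 64.7% in WT and from 14.7 through 43.5 to 57.2% in mD3AKO, with means of 50.1% ± 8.02 and 41.3% ± 9.44 (log2 odds ratio -0.55, SE 0.20, edgeR adjusted p = 0.244; permutation p = 0.00143). The intronic clusters at positions 84084830 and 84068203 had larger mean differences and a wider spread, from 37.1% ± 21.4 to 22.9% ± 17.3 and from 45.3% ± 22.9 to 32.1% ± 15.0. The cluster at the gene's start was near 0 in both genotypes (1.41% ± 3.41 and 0.571% ± 1.40).

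**Figure D3:**
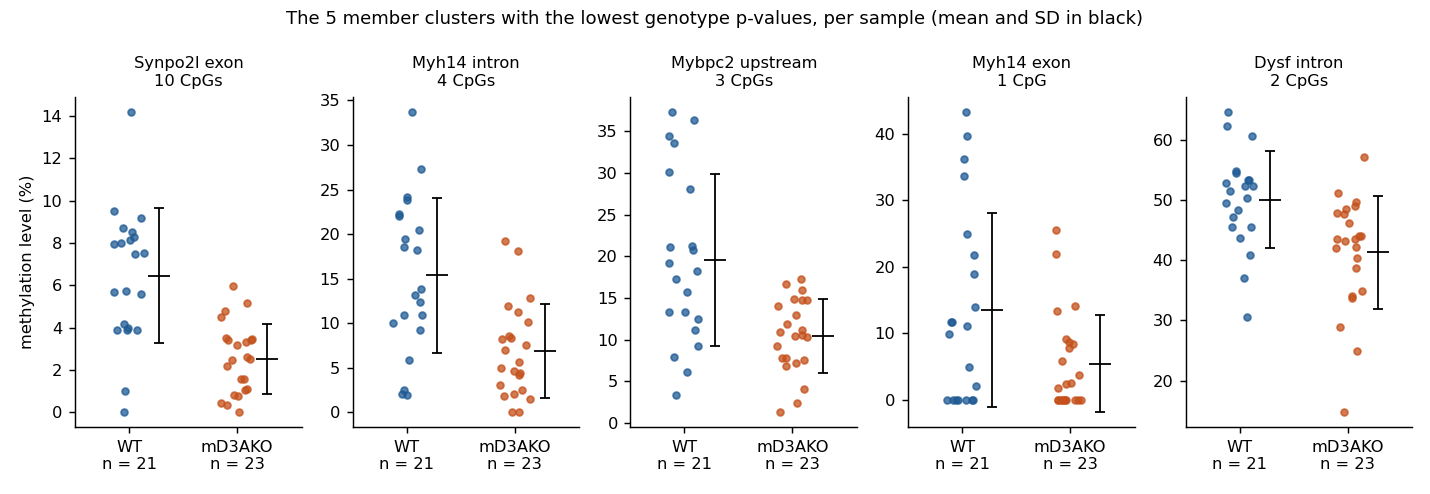
Methylation level (%) per sample of the 5 member clusters with the lowest genotype p-values, with mean and SD in black (21 WT and 23 mD3AKO samples). The mD3AKO mean is lower in every panel, the ranges overlap in all of them, and no cluster passed the main test.

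The measured myosin heavy chain genes held 17 clusters, of which 12 were lower in mean in mD3AKO, with a median difference of -2.86 points. This count and those for the other protein groups below stand beside 62.4% of all clusters that were lower, and none was tested. In the body of Myh4, the fast IIb heavy chain, a lone intronic CpG (position 67239397, 10 to 309 calls) had the largest mean difference of the member clusters. It ran from 0 through 54.3 to 92.9% in WT and from 0 through 35.3 to 58.7% in mD3AKO, with means of 54.3% ± 23.6 and 30.9% ± 19.4 (log2 odds ratio -1.68, SE 0.65, adjusted p = 0.311 with edgeR), and the ranges overlapped widely. Myh8, the perinatal heavy chain, was at 92.6% ± 7.11 and 84.6% ± 11.7 in a coding exon and at 60.3% ± 19.2 and 51.3% ± 25.7 at a CpG near the far end of its promoter. The embryonic heavy chain Myh3 went the other way in mean, from 18.5% ± 12.6 to 25.6% ± 9.60 over 4 intronic CpGs (edgeR adjusted p = 0.537). The coding exons of the cardiac alpha chain Myh6 were at 37.7 and 62.3% in WT and 36.4 and 57.1% in mD3AKO. Sarcomere heavy chain genes resemble each other in their coding exons, so a read from one might be placed in another. Read placement was not checked here, which leaves the exonic values of Myh2, Myh6 and Myh8 uncertain.

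The myosin light chain genes showed little difference, with a median of 0.11 points over 6 clusters and 1 of 6 lower in mean. The largest difference was in a cluster of 4 CpGs at the end of Mylpf, the fast regulatory light chain, at 22.2% ± 10.1 and 18.6% ± 10.2. That cluster also lies in Sept1, and only 1 of its CpGs was assigned to Mylpf. This CpG was at 0.840% ± 3.85 in WT and 1.23% ± 4.39 in mD3AKO, so the lower cluster mean did not come from it. The 20 CpGs at the start of Myl4, the embryonic and atrial light chain, in a cluster that also lies in Cdc27, were at 0.350% ± 0.371 and 0.409% ± 0.436.

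Among actins and alpha-actinins, 3 of 5 clusters were lower in mean. The 2 promoter CpGs of Actc1, the cardiac actin that fetal muscle also uses, were at 25.3% ± 12.0 in WT and 16.4% ± 12.4 in mD3AKO (log2 odds ratio -1.01, SE 0.54, adjusted p = 0.590 as a cluster with edgeR). The single promoter CpG of the skeletal actin gene Acta1, which the table also places in Gm20388, was at 11.5% ± 11.8 and 17.4% ± 19.3, where 1 mD3AKO sample reached 84.9%. Both ranges began at 0. The start of Actn2, the alpha-actinin of every fibre type, was at 1.84% ± 1.61 and 1.62% ± 1.27 over 8 CpGs.

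Troponin clusters were lower in mean at 5 of 6, with a median of -1.78 points, and tropomyosin clusters at 7 of 11, with a median of -0.77. Of the 30 member clusters with at least 20 CpGs in 500 bp, 19 were lower in mean in mD3AKO (63.3%, beside 62.4% of all clusters). Some clusters near 0 were higher in mean, such as the start of Myl4 (0.350% and 0.409%). A few CpG-rich clusters inside genes, picked as examples, had mean levels that were small in WT and smaller in mD3AKO. In Tpm3, the slow tropomyosin, 25 CpGs at the start of a shorter transcript were at 1.18% ± 0.891 and 0.581% ± 0.546, and in Tpm1, 19 CpGs at such a start at 1.65% ± 1.52 and 0.709% ± 0.775. In Ldb3, which encodes the Z-disc protein cypher, 15 intronic CpGs were at 1.58% ± 1.01 and 0.712% ± 0.631. Their adjusted p-values were 0.257, 0.429 and 0.262 (edgeR quasi-likelihood test), so none passed, with 563 to 5379 calls per sample behind the levels.

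Titin, nebulin and the proteins at the thin filament's ends were lower in mean at 15 of 35 clusters, with a median of 0.23 points. All 5 clusters of nebulin were higher in mean, by 0.22 to 2.80 points, and the 5 clusters of Nrap, which anchors thin filaments at the fibre's end, were all lower, by 0.26 to 4.20. No test of these counts was made, and no cluster of the 35 passed the test for genotype. The CpG-rich start of Tmod1, tropomodulin at the pointed end of the thin filament, was nearly free of methylation (30 CpGs, 0.550% ± 0.502 and 0.311% ± 0.306). The promoter of Tmod4, tropomodulin of skeletal muscle, was measured at -1917 bp from the gene start and was methylated, at 87.1% ± 4.94 and 86.4% ± 4.84. That cluster also lies in Vps72 by the table.

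Ttn alone gave 19 clusters with 41 CpGs, 16 of them touching coding exons, over a stretch from 7517 to 269833 bp behind its start. The median WT level was 76.4%, and 14 of 19 were above 60% in WT. The lowest, at 3.72% ± 3.49 in WT and 4.59% ± 5.28 in mD3AKO, lay in an intron 13519 bp from the start, between clusters at 70.5 and 85.9%. The highest, 5 CpGs near the end of the gene, was at 93.4% ± 3.87 and 93.7% ± 3.93. Genotype differences were small, with a median of 0.67 points and 13 of 19 higher in mD3AKO in mean. The largest difference of a Ttn cluster was at the coding CpG shown above (position 76794168, 8 to 112 calls), which ran from 0 through 36.4 to 78.0% in WT and from 7.69 through 55.6 to 100% in mD3AKO. Its means were 39.5% ± 21.1 and 54.1% ± 24.3 (log2 odds ratio 0.93, SE 0.46, adjusted p = 0.516 with edgeR). The next largest difference in that direction was at 4 CpGs near the start of Ttn, at 70.5% ± 14.7 and 77.2% ± 8.54. Over the whole body the levels were 76.4% ± 3.22 in WT and 76.8% ± 4.03 in mD3AKO (log2 odds ratio 0.05, SE 0.12).

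**Figure D4:**
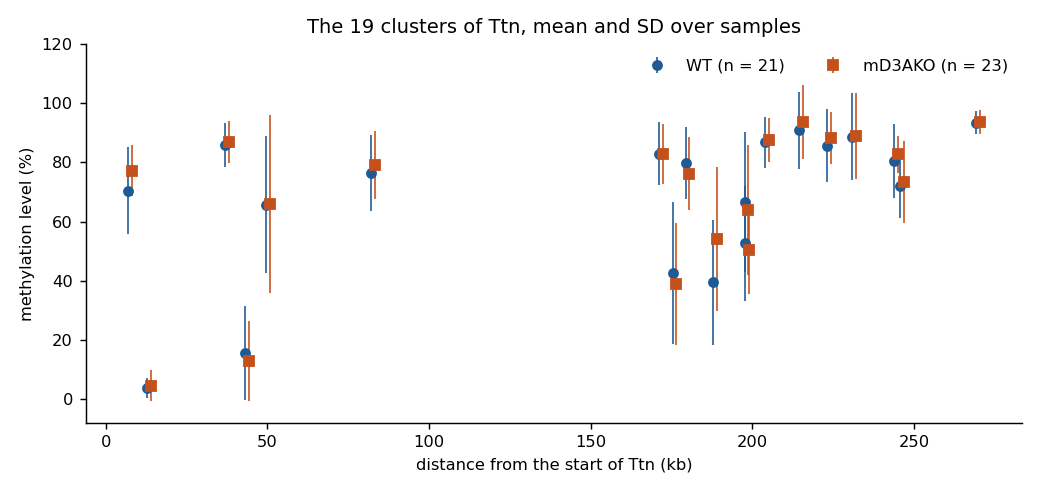
Methylation level (%, mean and SD over samples) of the 19 Ttn clusters by distance from the start of the gene (kb), with 21 WT and 23 mD3AKO samples. Levels range from 3.72 to 93.4% in WT, and the 2 genotypes lie within each other's SD along the gene.

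Myosin-binding and M-band proteins were lower in mean at 12 of 15 clusters (median -2.58 points). Beside Mybpc2, the largest mean differences were in Myom2, the fast myomesin of the M-band, at 84.9% ± 12.2 and 73.5% ± 18.9 in a coding exon, and in Myom1 at 86.8% ± 13.0 and 77.3% ± 11.1 at an intronic CpG. Z-disc proteins and desmin were lower in mean at 9 of 12 (median -0.77), and membrane, costamere and turnover proteins at 16 of 21 (median -2.74). In Plec, which encodes the cytoskeletal linker plectin, a single intronic CpG (position 76213882) was at 65.2% ± 30.6 in WT and 47.4% ± 24.0 in mD3AKO (log2 odds ratio -1.89, SE 0.71, adjusted p = 0.289 with edgeR). Its levels covered 3.45 to 100% in WT and 6.78 to 83.3% in mD3AKO. Trim63, the ubiquitin ligase MuRF1, was at 29.7% ± 22.7 and 38.0% ± 25.8 over 5 CpGs of a coding exon, within overlapping ranges that reached from 0 to 66.2% and from 1.67 to 100%.

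The isoform genes of slow and of fast fibres were set side by side without a test, since the lists were drawn up with results known and the clusters sit at different places in each gene. Clusters were measured in 9 of 11 slow isoform genes (21 clusters) and 8 of 14 fast isoform genes (22 clusters). In WT soleus the median cluster level was 51.7% for slow and 41.0% for fast isoform genes, beside 52.2% for all clusters. The mean over the slow clusters ran from 40.7 through 47.4 to 53.3% among WT samples, and that over the fast clusters from 35.7 through 42.6 to 45.6%. In mD3AKO they ran from 34.1 through 45.2 to 51.9% and from 31.6 through 38.5 to 44.1%. The mean was lower in mD3AKO at 14 of 21 slow (66.7%) and 14 of 22 fast clusters (63.6%), close to the 62.4% of all clusters. The median differences were -1.58 and -0.84 points. No cluster of either list passed the test.

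Promoter CpGs were available for 2 slow isoform genes. Those of Tnnc1, the troponin C of slow and cardiac muscle, were nearly unmethylated (0.548% ± 0.839 in WT, 0.483% ± 0.862 in mD3AKO, 5 CpGs that also lie in Nisch), and that of Tpm3 was at 40.2% ± 24.3 and 34.2% ± 15.2 (1 CpG, close to the far edge of the promoter window). For fast isoform genes there were 4. Mylpf was at 0.656% ± 2.20 and 0.770% ± 2.15 (2 CpGs), and Myh4 at 30.0% ± 10.4 and 31.8% ± 11.8 (3 CpGs). Tpm1 was at 1.21% ± 5.55 and 1.66% ± 6.22, from 1 CpG with 10 to 157 calls. Its highest sample was at 25.4% in WT and 29.2% in mD3AKO. The Mybpc2 promoter is described above. Thus promoter CpGs with a mean level near 0 occurred in both lists, in the fast list at few CpGs. Among partner genes, Mybpc1, the slow myosin-binding protein C, had 3 intronic clusters at 75.6 to 84.4% in WT, and the 3 clusters of Mybpc2 spanned 1.47 to 84.3%.

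**Figure D5:**
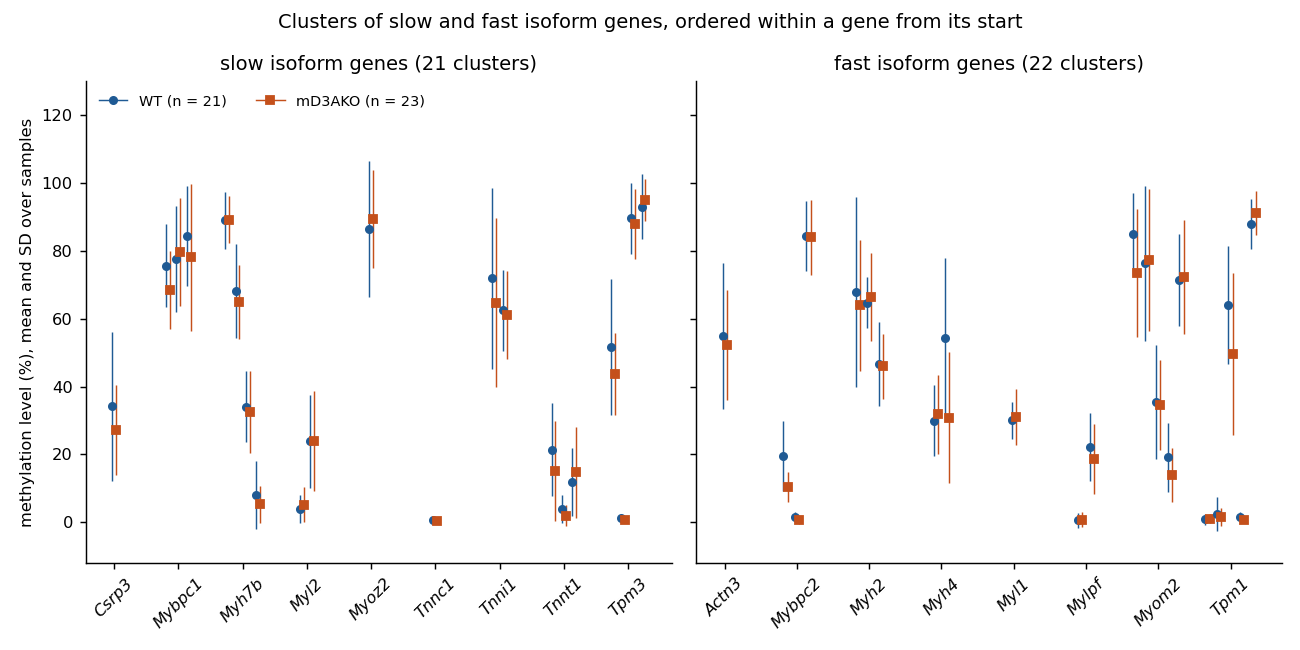
Methylation level (%, mean and SD) of each cluster in slow and fast isoform genes, for 21 WT and 23 mD3AKO samples, with clusters of a gene placed from its start onward. Levels span nearly the whole scale in both lists, from 0.548 to 92.9% for slow and from 0.656 to 87.9% for fast isoform genes in WT, and WT and mD3AKO bars overlap at every cluster.

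The test for time called 0 of 128 member clusters and 0% of all clusters, and the interaction of genotype with time called 0 of 128 and 0.00196% of all. At an unadjusted p under 0.05 there were 6 member clusters for time (4.69%, beside 2.87% of all clusters), 9 with the likelihood ratio test (7.03%, beside 6.44%) and 4 with the quasi-binomial model (3.13%, beside 5.33%). For the interaction there were 3 (2.34%, beside 2.77% of all), and 7 with each of the other tests (5.47%, beside 6.10% and 4.37%). Neither of those tests called a member. The lowest p-value for time was at a lone intronic CpG of Tpm1 (position 67044870, unadjusted p = 0.00504 with edgeR). Its WT means from rest to 60 min were 58.8% ± 20.1, 85.1% ± 9.28, 55.0% ± 4.27 and 58.0% ± 14.4, and its mD3AKO means 63.9% ± 14.9, 61.1% ± 25.6, 41.9% ± 18.7 and 36.7% ± 27.6. Next were the exonic CpG of Myh14 and clusters of Myh7b (34.1% ± 10.4 in WT), Plec (position 76206263, 2.59% ± 4.04) and the Ttn CpG shown above, with group means that moved in no single direction with time. Median changes from rest over the member clusters were -0.34, -0.02 and -0.65 points at 10, 30 and 60 min in WT and -0.17, -0.28 and -1.17 in mD3AKO. All 3 share the resting samples of their genotype. Over all clusters the same medians ran from -0.27 to 0.14.

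The genotype difference was taken at each time as well. Member clusters were lower in mean in mD3AKO at 69, 71, 80 and 84 of 128 at rest, 10, 30 and 60 min. Those are 53.9, 55.5, 62.5 and 65.6%, beside 54.6, 54.7, 61.2 and 59.2% of all clusters. The medians were -0.19, -0.38, -1.50 and -1.42 points, beside -0.24, -0.27, -0.70 and -0.54 over all clusters. No member cluster was called at a single time, where 2, 7, 8 and 5 of all 51038 clusters were called in the same order. The test for sex called 0 member clusters and 0% of all, with 4 members at an unadjusted p under 0.05 (3.13%, beside 4.38% of all). The test for genotype by sex also called 0 and 0%, with 7 members (5.47%, beside 3.26%).

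As a further comparison, 52 other genes of the sarcomere and costamere were listed, 47 of which had clusters. Of their 137 clusters 4 were called for genotype, all lower in mD3AKO, beside 1.04% of all clusters. The calls were in 3 genes: the myosin chaperone Unc45b (16.1% ± 7.74 and 1.57% ± 0.785 over 33 intronic CpGs, adjusted p = 1.76e-10 with edgeR, and 66.4% ± 12.9 and 39.3% ± 15.5 over 3), Trim54 (15.0% ± 5.03 and 3.43% ± 1.54) and the obscurin-like gene Obsl1 (17.5% ± 7.01 and 7.74% ± 3.70). The list was drawn up with earlier results for Unc45b and Trim54 known, so the count of calls is not a result about genes of this kind. The median difference over the 137 clusters was -0.70 points, close to that of the members.

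The depth behind these values was 12819404 to 41285655 calls per sample over the table and 22258 to 73013 over the member clusters. A single CpG had at least 8 calls in every sample, and 39 of the 128 clusters were single CpGs. The calls come from PCR copies without molecular tags, so a spread from few templates stays in the levels of shallow CpGs. WT samples 32 and 42 had been singled out in an earlier look at these data. The genotype groups did not overlap over the 529 called clusters with or without them. Those clusters were chosen on the same contrast with both samples included, so this cannot judge the samples. Over all clusters the mean level per sample did overlap, from 44.6 to 49.8% in WT and from 43.4 to 48.2% in mD3AKO. Without samples 32 and 42 edgeR called 3 of 128 member clusters, beside 1.14% of all clusters. They were in Synpo2l (edgeR adjusted p = 0.0186), Mybpc2 (0.0257) and Plec (position 76213882, 0.0203). In these clusters samples 32 and 42 were at 8.30 and 0% (Synpo2l), 3.39 and 6.17% (Mybpc2) and 11.8 and 3.45% (Plec). All except sample 32 in Synpo2l lay below the WT mean of the cluster. Leaving both out therefore raises the WT means there by construction, and these calls are no separate support for a genotype difference. The gene bodies of Myh14 and Synpo2l were called with and without these samples. Without them the edgeR adjusted p was 0.00288 for Myh14 and 0.0300 for Synpo2l, and 1.6% of all gene bodies were called.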

How the data were processed

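Reduced representation bisulfite sequencing, which reads CpGs near CCGG sites, was done on 50 soleus samples, of which 44 were used (21 WT, 23 mD3AKO) and 6 were not analysed here. The deposited table gives counts of methylated and unmethylated calls per CpG. Per the labels and the study's methods, the authors trimmed reads of 75 bases (Trim Galore 0.4.0, cutadapt 1.9.1), aligned and called them with Bismark 0.18.1 on mm10, added both strands, required 8 or more reads at a CpG in each sample, and removed sex chromosomes and mitochondrial DNA. The table names at most 1 gene body and 1 promoter (3000 bp before to 1000 bp after the start) per CpG. No column was left without a sample (0).

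Calls were summed per deposited cluster, promoter and gene body; the table's CpGs joined anew at 100 bp do not give the same clusters, so wider gaps occur within some of them. edgeR 4.0.16 (R 4.3.3) fitted a coefficient per sample and the methylated share of each of 8 groups, with a quasi-likelihood F test of the mean of the mD3AKO groups against that of the WT groups. p-values were adjusted (Benjamini-Hochberg, threshold 0.05) over all features. Where a single sample was left out, the estimates of spread shared across features were kept from the full fit. A feature then counted as called if its p was no higher than the highest called in the full fit, without a new adjustment. Levels are percent of pooled calls per sample. limma 3.58.1 and other tests were alternatives. Single means were compared by two-sided permutation (100000 resamples), only for clusters and gene bodies picked by their results in the same samples. The permutation p-values are unadjusted and are no separate support. The code was tested on simulated data. Exon and intron assignments came from GENCODE M21, the study's from an earlier release.

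The members and gene lists were chosen with earlier results of these data known. Genes were named in full where called, where among the 5 lowest p-values, the 5 largest differences in each direction or the 5 lowest p-values for time, and where an isoform gene had promoter CpGs. Other clusters given as examples of a role were picked after their values were seen.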

Additional observations from a re-analysis of the deposited data

Results flagged for a closer look

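Within-group spread was examined in 7 features (the 5 clusters with the lowest p-values and the gene bodies of Myh14 and Synpo2l) over 56 groups, of which 4 held a sample far from the others; chance alone gives about 2.8. mD3AKO sample 33 at 30 min was at 12.0% in the Myh14 intronic cluster, where the other 6 samples of its group lay between 0 and 4.61%. The same sample was at 14.6% over the whole Myh14 body, against 0.538 to 5.29% in the others, which largely repeats the first value since the cluster supplies most of the calls. mD3AKO sample 29 at 30 min was at 6.79% in the Synpo2l body, against 1.25 to 3.60%. WT sample 1 at rest was at 64.7% in the Dysf intronic cluster, against 45.5 to 48.4%.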

How the results depend on the processing

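The 5 clusters and 2 gene bodies followed under the alternatives kept their direction. Members that passed no test did not all do so: the fitted log2 odds ratio of the Myh14 promoter was 1.66 in the main test and -1.45 at rest alone, and that of the Trim63 body 0.57 and -0.03 with the quasi-binomial model. The count of member clusters called for genotype, 0 of 128 with the quasi-likelihood test, became 4 with the likelihood ratio test, 3 with the quasi-binomial model, 2 with limma and 3 without samples 32 and 42. With the quasi-binomial model it was 1 of 75 at a coverage minimum of 20, 4 of 181 with clusters joined at 50 bp and 3 of 131 with clusters joined at 200 bp. It was 0 within samples 1 to 25, within samples 26 to 50, at rest alone, with sex added, and over the 126 clusters made mainly of member CpGs. Of all 51038 clusters, 40 were called within samples 1 to 25, 72 within samples 26 to 50, 2 at rest alone and 549 with sex added. The shares of all clusters called at the coverage minimum of 20 and at the other gaps are not given here, so those member counts have no background beside them. Leaving out single samples gave 0 to 1 (1 without WT sample 22, 32 or 42). Promoter calls went from 0 to 1 (Mybpc2) with the likelihood ratio test and the quasi-binomial model. Gene body calls, 2 in the main test, were 0 of 29 at a coverage minimum of 20 with the quasi-binomial model, which itself called 2, 0 in samples 1 to 25, 1 in samples 26 to 50, 0 at rest alone, and 1 to 2 with single samples left out, where Myh14 was called in 44 of 44 fits and Synpo2l in 22. For gene bodies, too, the share of all called at the coverage minimum of 20 is not given, so the 0 of 29 has no background beside it. Of all 12391 gene bodies, 288 were called with the quasi-binomial model, 24 in samples 1 to 25, 49 in samples 26 to 50 and 5 at rest alone. These 3 sample subsets, and leaving out 32 and 42, were chosen for promoters and gene bodies after the data were seen. The median WT level of fast isoform clusters was 32.9% at a coverage minimum of 20, against 41.0%, with 13 clusters in place of 22. That of slow isoform clusters was also lower at this minimum, at 43.7% against 51.7%. The smaller sets hold fewer CpGs or samples by construction; the cause of the other shifts was not tested. No paired analysis was possible because the sample numbers are unique to each sample.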
